A study of Homo sapiens with 18 samples.

Results

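Tight junctions seal neighbouring epithelial cells to each other, and polarity proteins decide which face of the cell becomes apical. The 10 genes described here were chosen for these roles, with earlier results of these data known, and all were kept whatever their values. They are the claudins CLDN1, CLDN4 and CLDN7, occludin (OCLN), the scaffold TJP1, the junctional adhesion molecule F11R, the polarity proteins CRB3 and LLGL2, and the apical trafficking proteins MAL2 and RAB25. Of the 10, 9 had a probe set with a gene name among the 19775 genes read here, F11R was not analysed here, and 7 were bright enough to be among the 12171 genes tested. The annotation places the 9 genes on chromosomes 1 (RAB25), 3 (CLDN1), 5 (OCLN), 7 (CLDN4), 8 (MAL2), 15 (TJP1), 17 (CLDN7 and LLGL2) and 19 (CRB3), and all are protein coding. MAL2 and CRB3 were lowest in CD10+ cells of 1 transformed line, where MAL2 lay at 139 and 146 against 1631 and 2182 in its CD10- cells, and CRB3 at 14.1 and 23.4 against 87.3 and 90.6.

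The samples were 18 Affymetrix arrays of MCF10A, a non-malignant human mammary epithelial line that carries a CDKN2A deletion and MYC amplification, and of lines made from it. MCF10A-CT was the control, kept in standard medium. MC26 came from MCF10A cells exposed for a long time to BMP2, a secreted morphogen, together with the cytokine IL6, and M1B26 from cells first sorted for the receptor BMPR1B and then exposed to both, by way of 3 expanded soft-agar clones. The labels give IL6 at 10 ng/ml and BMP2 at 5 ng/ml in one field and 10 ng/ml in another, and the growth medium of all 3 lines held horse serum, insulin, hydrocortisone, cholera toxin and EGF. Each line was profiled unsorted, and after sorting by membrane CD10 (a peptidase found on basal and immature mammary cells) into CD10- and CD10+ cells, with 2 biological replicates in each of the 9 groups. The comparisons ask whether these genes differ with CD10 within a line, whether that difference is itself altered in the transformed lines, and how each line compares with the control.

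As background, claudins and occludin are membrane proteins that form the strands of the junction, and TJP1 (ZO-1) ties them to actin. CRB3 belongs to the apical Crumbs complex, while LLGL2 works at the basolateral side and opposes the apical kinases. MAL2 and RAB25 act in the transport of membrane to the apical surface. Epithelial cells that move towards a mesenchymal state are known for giving up many of these proteins, and the repressors ZEB1, ZEB2, SNAI1 and SNAI2 bind E-box motifs in promoters of epithelial genes.

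The arrays shared 1 median intensity, and correlations between replicates of a group, over all probe sets on the log2 scale, ran from 0.938 to 0.954. Over all pairs of arrays they ran from 0.901 to 0.957, so some arrays of different groups were as alike as replicates. MME, the gene of CD10, was higher in CD10+ than in CD10- cells of each line without overlap, a difference that passed in M1B26 (5.19 ± 0.64, limma adjusted p = 1.3e-04) but not in the other lines: it lay at 48.3 and 65 against 9.73 and 11.3 in MCF10A-CT, at 69.8 and 90.7 against 6.39 and 27.8 in MC26, and at 1021 and 1269 against 15.9 and 56.4 in M1B26. Epithelial markers were above the filter in every group, apart from KRT19 (6 of 7 measured), and of 7 leukocyte and endothelial genes measured 2 to 3 were above it in each group: CD14 (means of 145 to 386) and PECAM1 (32 to 45.4) in all 9, CD3E in 3, and PTPRC, LYZ, VWF and CDH5 in none. CD10+ M1B26 cells stood apart in both directions: their summed intensity of 12 mesenchymal and fibroblast markers was 24100 to 25197, against 5147 to 9341 on the other arrays, and that of the epithelial markers 10449 to 11541 against 12819 to 22565. The ACTB 3' to 5' probe ratio, a sign of RNA integrity and labelling, was 1.56 to 2.14 on unsorted and 1.11 to 1.34 on sorted arrays, so every comparison of unsorted with sorted cells also compares these values, and their part in it was not tested. In bulk samples, fewer cells expressing a gene and less RNA per cell cannot be told apart.

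**Figure D1:**
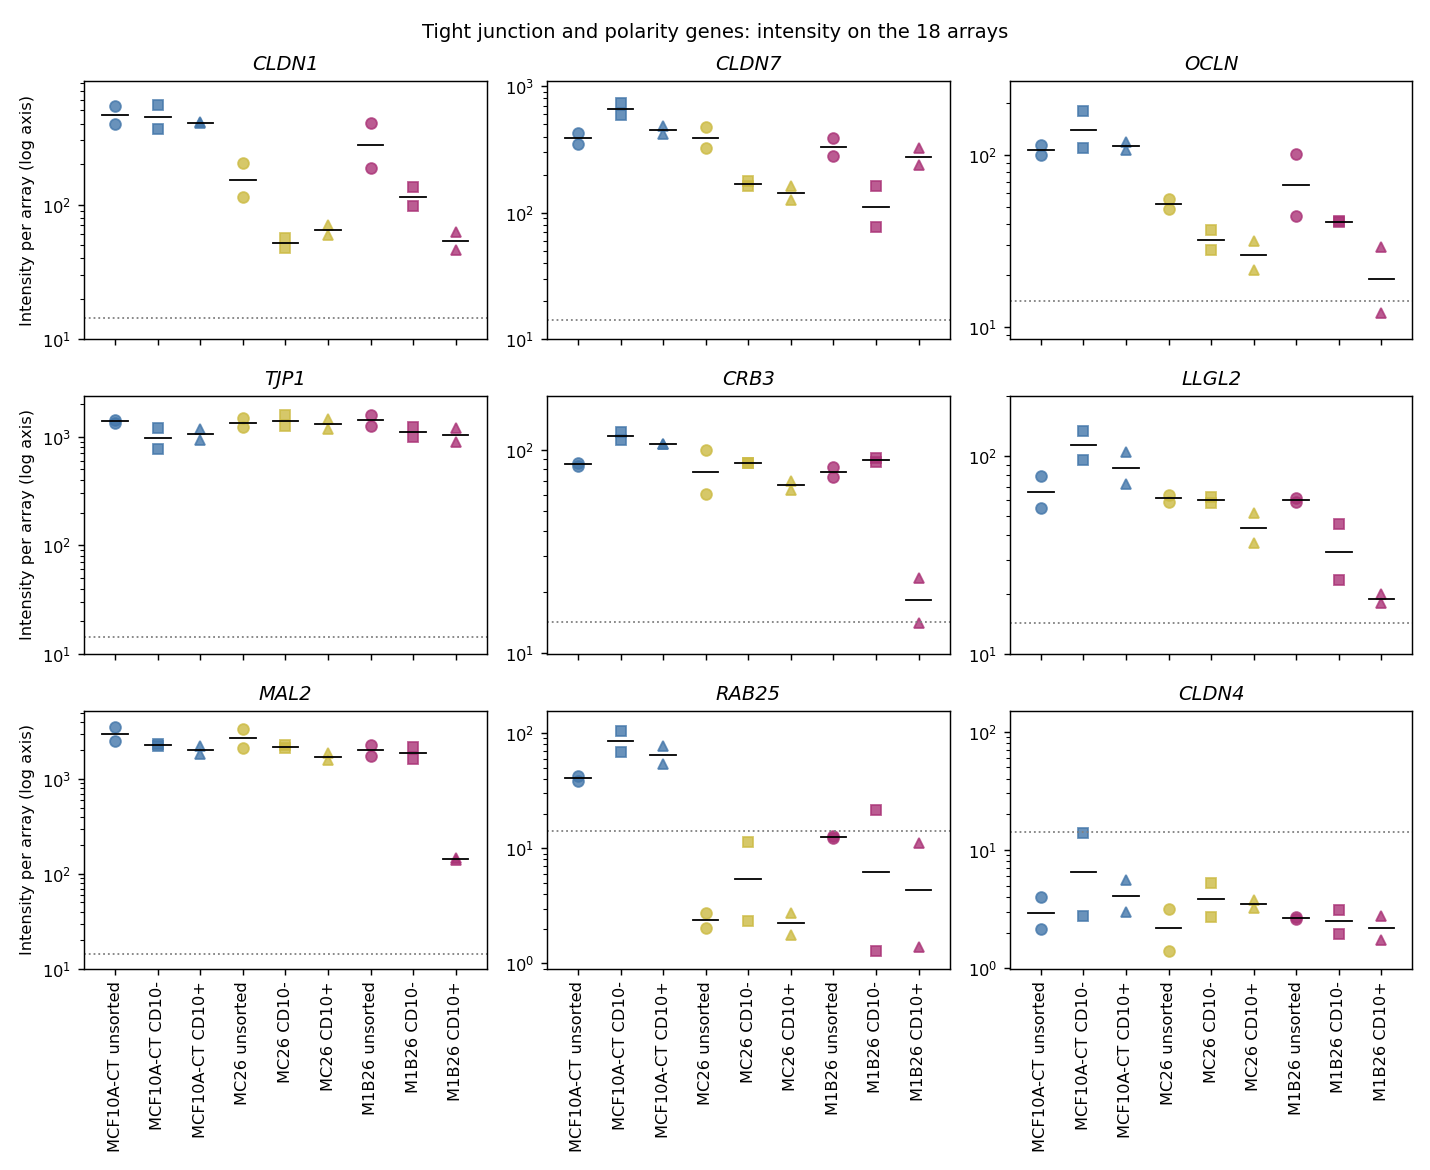
Intensity (log axis) of the 9 genes with a probe set on each of the 18 arrays; points are arrays, black bars the mean of the 2 replicates on the log2(intensity + 1) scale, colours the lines, circles, squares and triangles unsorted, CD10- and CD10+ cells, and the dotted line the level of the filter on dim probe sets (intensity 14.3). MAL2 and CRB3 are far lower in CD10+ M1B26 cells than elsewhere, RAB25 is above the dotted line on every MCF10A-CT array and on 1 array of the other lines, and TJP1 stays between 769 and 1581.

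MAL2 is a membrane protein needed for delivery of cargo to the apical surface by transcytosis. It was bright on every array but those of CD10+ M1B26 cells. In MCF10A-CT its intensity was 2539.9 and 3499.5 in unsorted, 2247 and 2322 in CD10- and 1822 and 2253 in CD10+ cells. MC26 had 2141 and 3369 unsorted, 2146 and 2258 in CD10- and 1571 and 1859 in CD10+ cells. M1B26 had 1768 and 2273 unsorted and 1631 and 2182 in CD10- cells, and then 139 and 146 in CD10+ cells. The lowest of the other 16 arrays was thus at 1571, and no other group stood apart from its neighbours in the order by a comparable step.

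CRB3 is the epithelial member of the Crumbs family and recruits PALS1 and PATJ to the apical membrane. Its intensity was 83.3 and 86.3 in unsorted, 112 and 123 in CD10- and 107 and 107 in CD10+ MCF10A-CT cells. In MC26 it was 60.5 and 99.9 unsorted, 85.7 and 85.7 in CD10- and 63.7 and 70.3 in CD10+ cells. In M1B26 it was 73.5 and 81.9 unsorted, 87.3 and 90.6 in CD10- and 14.1 and 23.4 in CD10+ cells, which are the 2 lowest of all 18 arrays. The lower of them is just under the filter level of 14.3.

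The promoter of CRB3 is shown because ZEB1 and ZEB2 RNA moved in the same cells, as given further on. It is the 250 bases before the RefSeq start (GRCh38.p14, chr19:6464021-6464270, plus strand), with each E-box CAGGTG or its reverse complement CACCTG in capitals:

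CRB3: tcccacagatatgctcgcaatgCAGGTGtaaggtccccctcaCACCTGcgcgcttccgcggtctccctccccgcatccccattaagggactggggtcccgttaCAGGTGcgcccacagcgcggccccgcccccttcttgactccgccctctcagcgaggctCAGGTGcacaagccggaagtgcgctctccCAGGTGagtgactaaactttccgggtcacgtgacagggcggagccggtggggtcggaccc

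CLDN7: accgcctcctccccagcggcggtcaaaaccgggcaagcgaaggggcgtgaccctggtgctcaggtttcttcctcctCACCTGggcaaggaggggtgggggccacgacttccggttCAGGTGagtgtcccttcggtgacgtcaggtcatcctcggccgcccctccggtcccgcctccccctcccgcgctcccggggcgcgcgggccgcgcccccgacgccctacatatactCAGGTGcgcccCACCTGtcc

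The second sequence is the window of a CLDN7 start (chr17:7262479-7262728, minus strand), shown for contrast, since CLDN7 was the one tested member that rose in those cells. Of the CLDN7 starts, the one whose window holds matches was printed, so its having matches was fixed by that choice. The CRB3 window holds 5 matches, which begin 228, 208, 147, 89 and 60 bases before the start, and the CLDN7 window 4, at 174, 135, 20 and 9 bases. Of 35116 promoter windows of the same length, 17.5% hold at least 1 match on either strand, 0.122% at least 4 and 0.0740% at least 5. Windows of 7 members with 12 starts were read. Chromosome 8, which holds MAL2, was left out of this reading, so the counts do not cover MAL2. Of the 12 windows 6 hold a match: besides the 2 printed, 1 match each at RAB25, at both starts of OCLN and at 1 of 4 starts of TJP1. The windows of CLDN1 and CLDN4 and the other CLDN7 start hold none. These are matches of letters only, and of the 2 genes printed CRB3 fell and CLDN7 rose in CD10+ M1B26 cells. Binding of ZEB1 or ZEB2 here, and any part of it in the CRB3 values, was not tested.

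CLDN7, a claudin of simple and ductal epithelia, behaved differently from CRB3 and MAL2. In MCF10A-CT it lay at 351 and 429 unsorted, 589 and 733 in CD10- and 422 and 484 in CD10+ cells. MC26 had 323 and 473 unsorted, but 162 and 176 in CD10- and 126 and 162 in CD10+ cells. M1B26 had 283 and 387 unsorted, 76.5 and 163 in CD10- and 237 and 322 in CD10+ cells. The 6 unsorted arrays overlapped across lines, while all sorted MC26 and M1B26 arrays lay below all sorted MCF10A-CT arrays.

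CLDN1, a claudin needed for the barrier of the skin, was high in every population of MCF10A-CT: 395 and 536 unsorted, 362 and 552 in CD10- and 403 and 409.7 in CD10+ cells. MC26 had 114 and 203 unsorted, and only 47.5 and 56.7 in CD10- and 59.7 and 70.1 in CD10+ cells. M1B26 had 187 and 406 unsorted, 97.3 and 134 in CD10- and 45.9 and 62.4 in CD10+ cells. The 3 lowest groups were CD10+ and CD10- MC26 and CD10+ M1B26, among which CD10+ M1B26 overlapped both others and the MC26 populations did not overlap each other, and the 3 MCF10A-CT groups at the top overlapped.

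OCLN, a membrane protein of the junction strand, had its highest and lowest arrays in much the same groups as CLDN1. Its intensity was 100.2 and 115 unsorted, 109 and 179 in CD10- and 107 and 119.8 in CD10+ MCF10A-CT cells. In MC26 it was 48.6 and 55.9, 28.2 and 36.6, and 21.6 and 31.6 in the same order. In M1B26 it was 44.3 and 101, 40.8 and 41.4, and 12.2 and 29.4. Every sorted MC26 and M1B26 array was below every MCF10A-CT array.

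TJP1 hardly varied. It ran from 769 to 1581 over all 18 arrays, and the range of its group means was 0.55 on the log2 scale, against 2.51 to 4.38 for the other 6 tested members. A second TJP1 probe set (correlation with the first 0.50 over the arrays) read lower in sorted than in unsorted cells of every line, by 1.04, 1.07 and 1.05 on the log2 scale in MCF10A-CT, MC26 and M1B26 (limma adjusted p = 0.00593, 0.0428 and 0.0158), where the first gave -0.46, 0.01 and -0.40 and did not pass. This difference moved with the ACTB ratio, whose part in it was not tested.

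LLGL2, a homologue of the fly tumour suppressor lethal giant larvae, was at 54.8 and 79.1 unsorted, 95.5 and 134 in CD10- and 72 and 104 in CD10+ MCF10A-CT cells. In MC26 it was at 58.9 and 63.8, 57.8 and 62.2, and 36.1 and 51.8. In M1B26 it was at 58.3 and 61, 23.6 and 45.3, and 18 and 20.1. The unsorted values of the 3 lines overlapped, and the sorted values came in the order MCF10A-CT, MC26, M1B26 within CD10- and within CD10+ cells, without overlap between lines. In a second LLGL2 probe set (correlation with the first 0.89 over the arrays) CD10- MCF10A-CT and MC26 arrays overlapped, at 75.2 and 83.5 against 57.4 and 76.3. The rest of that order held in it. It read CD10- M1B26 minus CD10- MCF10A-CT cells as -0.98 (limma adjusted p = 0.032).

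RAB25, a GTPase of the apical recycling endosome, was brightest in the control line. Its intensity was 38.7 and 42.5 unsorted, 68.9 and 105 in CD10- and 54.3 and 77.8 in CD10+ MCF10A-CT cells. MC26 had 2.04 and 2.75, 2.35 and 11.3, and 1.77 and 2.75, and M1B26 had 12.4 and 12.8, 1.28 and 21.6, and 1.38 and 11.1. All 6 MCF10A-CT arrays were above all 12 others, and 11 of those 12 were under the filter level of 14.3. Because of these low values its mean over all arrays missed the filter, and it has no test in the fit reported here. In an alternative fit with no filter it was lower in the sorted cells of both lines than in MCF10A-CT (limma adjusted p = 0.013 to 0.020). Unsorted MC26 and M1B26 cells, at -3.62 and -1.61, did not pass (adjusted p = 0.22 and 0.86). With levels this near background these sizes are uncertain.

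CLDN4 was near background in all 9 groups, from 1.42 to 14 over the arrays, and its second probe set was as dim and did not follow the first (correlation -0.016). No difference of CLDN4 can be read here.

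Between CD10+ and CD10- cells, 3 of the 7 tested members changed in M1B26, and none passed the test in the other lines. In MCF10A-CT, limma called 0 of 7 members at an adjusted p under 0.05 (0 at an unadjusted p under 0.05), where 0% of all tested genes were called and 166 had an unadjusted p under 0.05. In MC26, limma called 0 of 7 (0 unadjusted), with 0% of all genes called and 100 under an unadjusted p of 0.05. The 95% intervals were not narrow: in MCF10A-CT they ran from -0.67 to 0.33 for MAL2 and from -0.73 to 0.47 for CRB3, and in MC26 from -0.86 to 0.13 and from -0.95 to 0.25.

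In M1B26, MAL2 fell by 3.72 ± 0.23 (SE) on the log2 scale in CD10+ cells (limma adjusted p = 3.3e-07) and CRB3 fell by 2.23 ± 0.28 (adjusted p = 1.5e-04), while CLDN7 rose by 1.30 ± 0.32 (adjusted p = 0.023). Each of these 3 genes has only 1 probe set here, so no second probe set could check its call. These 3 of 7 tested members compare with 6.5% of all tested genes called in this contrast. The set was chosen with earlier results of these data known, so setting these shares side by side is no test. CLDN1 (-1.08 ± 0.36, adjusted p = 0.093), OCLN (-1.07 ± 0.42, adjusted p = 0.16) and LLGL2 (-0.75 ± 0.34, adjusted p = 0.24) did not pass. Their CD10+ and CD10- arrays did not overlap, which says little with 2 arrays a group. How many of all tested genes separate so was not counted. The 3 other OCLN probe sets, 1 of them above the filter, turned the direction, at 0.14, 0.30 and 0.71 (adjusted p = 0.93, 0.85 and 0.77), so OCLN has no settled direction in this contrast. TJP1 was at -0.09 (95% interval -0.61 to 0.43). The median of the 7 was -1.07, against 0.01 for all tested genes. The CLDN7 call rested on single arrays: without the first CD10- replicate the difference was 0.76 (adjusted p = 0.22), without the second CD10+ replicate 1.08 (adjusted p = 0.21) and without the first CD10+ replicate 1.52 (adjusted p = 0.057). When the fit took only sorted arrays and gave each same-numbered pair of a line its own block, CLDN1 and OCLN passed as well, making 5 of 7, while 2564 genes in place of 791 were called.

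**Figure D2:**
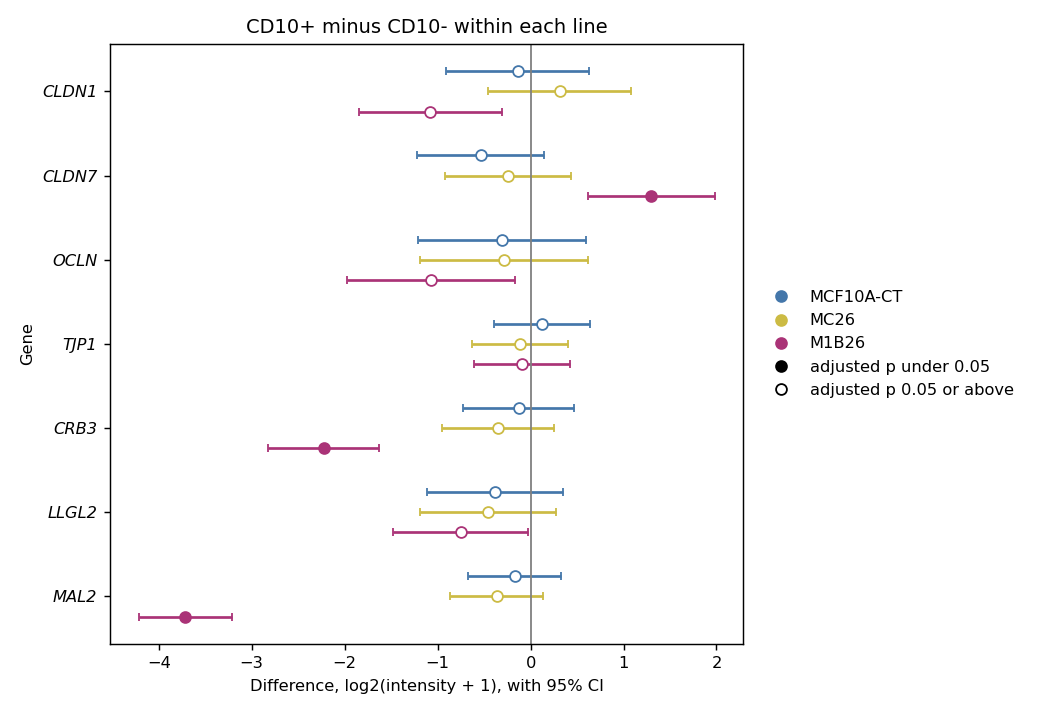
Difference between CD10+ and CD10- cells on the log2(intensity + 1) scale for the 7 tested members in each line, with 95% intervals from limma; filled points have an adjusted p under 0.05 over all tested genes. In M1B26, MAL2 (-3.72) and CRB3 (-2.23) lie left of 0 and CLDN7 (1.30) right of it, and no point of MCF10A-CT or MC26 is filled.

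The CD10 difference itself differed between lines for MAL2 and CRB3. Minus the difference in MCF10A-CT, that in M1B26 was -3.54 ± 0.33 for MAL2 (limma adjusted p = 1.1e-04) and -2.10 ± 0.40 for CRB3 (adjusted p = 0.014), with 1.38% of all genes called. Minus the difference in MC26, it was -3.35 ± 0.33 for MAL2 (adjusted p = 1.5e-04) and -1.88 ± 0.40 for CRB3 (adjusted p = 0.030), with 1.27% called. CLDN7 was at 1.84 ± 0.45 and 1.54 ± 0.45 and did not pass (adjusted p = 0.064 and 0.13). The 2 contrasts share the 4 sorted M1B26 arrays. MC26 minus MCF10A-CT gave 0 of 7 members by limma (0 at an unadjusted p under 0.05) and 0% of all genes, of which 83 had an unadjusted p under 0.05. The CRB3 calls were less firm than those of MAL2: without the second CD10+ M1B26 replicate they were -1.75 (adjusted p = 0.088) and -1.53 (adjusted p = 0.15), and the first was also lost without the second replicate of CD10+ MCF10A-CT or of CD10- M1B26 (adjusted p = 0.052 and 0.056), the second without any 1 of the sorted MC26 arrays or either CD10- M1B26 replicate (adjusted p = 0.068 to 0.105). With the pairs as blocks, CLDN7 and CLDN1 passed in both contrasts.

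Averaged over the 3 lines, CD10+ cells had less MAL2 (-1.42 ± 0.14, limma adjusted p = 1.4e-04) and less CRB3 (-0.90 ± 0.16, adjusted p = 0.011), with 1.14% of all genes called. Both averages rested on M1B26. With the sorted M1B26 arrays left out, a choice made after seeing the data, the averages were -0.27 for MAL2 and -0.24 for CRB3 and neither passed (adjusted p = 1.00 for both). With the pairs as blocks, OCLN (-0.56) and LLGL2 (-0.53) passed as well.

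Between the lines, 3 to 5 of the 7 tested members fell in each sorted comparison with the control. All comparisons with MCF10A-CT within a population share its 2 arrays, so their values are given side by side and not as repeats of each other. In CD10- MC26 cells, CLDN1 fell by 3.08 ± 0.36, CLDN7 by 1.95 ± 0.32 and OCLN by 2.09 ± 0.42 (limma adjusted p = 2.9e-04, 0.0014 and 0.0044), with 20% of all tested genes called. In CD10+ MC26 cells the same 3 genes fell by 2.63, 1.66 and 2.07 (adjusted p = 0.0015, 0.0060 and 0.0075), with 13.5% called. LLGL2 was at -0.91 and -0.99 and did not pass (adjusted p = 0.074 and 0.067). MAL2 differed little, at -0.05 (95% interval -0.55 to 0.45) and -0.25 (-0.74 to 0.25).

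In CD10- M1B26 cells, CLDN1 fell by 1.96 ± 0.36, CLDN7 by 2.54 ± 0.32, OCLN by 1.75 ± 0.42 and LLGL2 by 1.76 ± 0.34 (limma adjusted p = 0.0020, 2.5e-04, 0.0088 and 0.0026), while MAL2 (-0.28) and CRB3 (-0.40) did not pass. These were 4 of 7 members, with 26.4% of all genes called. In CD10+ M1B26 cells 5 of 7 fell, again with 26.4% of all genes called: MAL2 by 3.82 ± 0.23, CLDN1 by 2.90 ± 0.36, OCLN by 2.51 ± 0.42, CRB3 by 2.49 ± 0.28 and LLGL2 by 2.13 ± 0.34 (adjusted p = 1.1e-07, 8.4e-05, 9.9e-04, 3.7e-05 and 7.0e-04). The 3 other OCLN probe sets read -1.22, -1.47 and -1.62 in CD10+ M1B26 cells and did not pass (adjusted p = 0.10, 0.068 and 0.23). CLDN7 in CD10+ M1B26 cells was at -0.71 (adjusted p = 0.11). Its arrays did not overlap, but the share of all genes that separate so was not counted. TJP1 passed in none of these 4 contrasts, at 0.55, 0.19, 0.32 and -0.02.

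All tested genes together shifted upwards in these contrasts, with medians of 0.13 and 0.23 in CD10- MC26 and M1B26 cells and 0.08 and 0.31 in CD10+ cells. The members' medians were -0.91, -1.75, -0.99 and -2.49. Sorted and unsorted cells differed for 22.2% of all genes in MCF10A-CT, against 0.822% in MC26 and 4.21% in M1B26. The part of this difference in the sorted control arrays in these falls was not tested. The shares of all genes given beside these contrasts count both directions, and most of those calls were rises. In CD10- cells 1635 genes were called higher and 796 lower in MC26, and 2407 and 811 in M1B26. In CD10+ cells it was 973 and 666 in MC26, and 2571 and 648 in M1B26. The OCLN calls depended on the probe set and on 1 control array: 2 other probe sets, 1 of them below the filter, read the CD10- MC26 difference as -0.94 and 0.11 (limma adjusted p = 0.26 and 0.96), and without the second CD10- MCF10A-CT replicate OCLN was at -1.74 and -1.39 in CD10- MC26 and M1B26 cells (adjusted p = 0.065 and 0.099). In CD10+ MC26 cells, CLDN7 and OCLN lost their calls without the second CD10+ replicate of either line (adjusted p = 0.057 to 0.069), and a second CLDN1 probe set read -1.71 (adjusted p = 0.073).

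**Figure D3:**
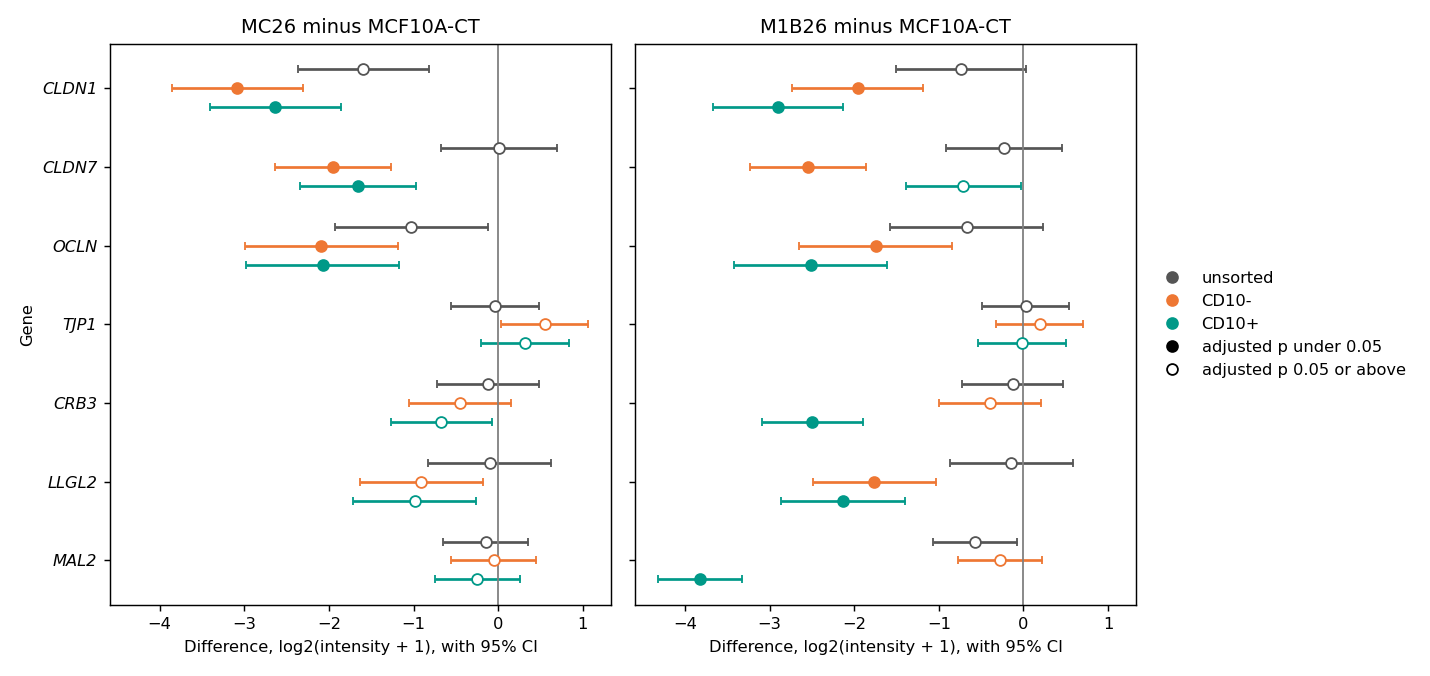
Difference of MC26 (left) and M1B26 (right) from MCF10A-CT on the log2(intensity + 1) scale within unsorted, CD10- and CD10+ cells, for the 7 tested members, with 95% intervals from limma; filled points have an adjusted p under 0.05. No unsorted point is filled, CLDN1 and OCLN are filled in both sorted populations of both lines, and MAL2 and CRB3 only in CD10+ M1B26 cells (-3.82 and -2.49).

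Unsorted cells showed no member past the threshold. In MC26 against MCF10A-CT, limma called 0 of 7 members (2 at an unadjusted p under 0.05) and 0.32% of all genes, CLDN1 being the lowest at -1.59 ± 0.36 (adjusted p = 0.092), followed by OCLN at -1.03 (adjusted p = 0.52). In M1B26 against MCF10A-CT it called 0 of 7 (1 unadjusted) and 0.674% of all genes, with MAL2 at -0.57 ± 0.23 (adjusted p = 0.56) and CLDN1 at -0.74 (adjusted p = 0.74). In M1B26 against MC26 it called 0 of 7 (1 unadjusted) and 0.0986% of all genes, with CLDN1 at 0.86 ± 0.36 (adjusted p = 0.94). For CLDN7 the unsorted intervals, -0.67 to 0.69 and -0.91 to 0.45 against MCF10A-CT, leave out the falls measured in CD10- cells.

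Unsorted cells were also set against sorted cells. In MC26, both unsorted arrays of CLDN1, CLDN7 and OCLN were above all 4 sorted arrays, in M1B26 the same held for CLDN1, OCLN, LLGL2 and TJP1, and in MCF10A-CT for TJP1 and MAL2. How many of all tested genes separate in this way was not counted, so this is a description only. The mean of CD10- and CD10+ minus unsorted was then tested, a contrast chosen after seeing the data, which does not ask whether unsorted cells lie outside the range of the sorted ones. It was called for 0 of 7 members in MCF10A-CT by limma (2 at an unadjusted p under 0.05), where 22.2% of all genes were called. In MC26 it was called for CLDN7 (-1.32 ± 0.28, adjusted p = 0.040), with 0.822% of all genes called. In M1B26 it was called for MAL2 (-1.95 ± 0.20), CLDN1 (-1.80 ± 0.31), LLGL2 (-1.22 ± 0.30) and CRB3 (-0.92 ± 0.24), with adjusted p = 1.4e-04, 0.0044, 0.031 and 0.046 and 4.21% of all genes called. The MAL2 and CRB3 values hold the drop in CD10+ M1B26 cells, since their unsorted arrays overlapped the CD10- ones or lay close below them. Minus the same contrast in MCF10A-CT, CLDN7 was lower in MC26 (-1.81 ± 0.39, adjusted p = 0.016, 6.07% of genes called). In M1B26, 5 members were lower in this way: LLGL2 (-1.80), CLDN1 (-1.69), MAL2 (-1.48), CLDN7 (-1.40) and CRB3 (-1.32), with adjusted p = 0.015, 0.025, 0.0079, 0.032 and 0.024 and 11.9% of genes called. Many of these calls rested on the first unsorted replicate of a line: without it CLDN7 in MC26 was at -1.05 (adjusted p = 0.25), CLDN1 in M1B26 at -1.25 (adjusted p = 0.13) and CRB3 in M1B26 at -0.84 (adjusted p = 0.35), and 0 of 7 members passed in the last contrast. Second probe sets of LLGL2 (-0.74, and -1.08 against MCF10A-CT) and CLDN1 (-1.56 against MCF10A-CT) also missed the threshold (adjusted p = 0.15, 0.077 and 0.17). The ACTB ratio moved with sorting, and its part was not tested.

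Over the 9 group means the members formed 2 pairs, given as a description since the points share lines and arrays. CLDN1 and OCLN had a correlation of 0.97, and CRB3 and MAL2 one of 0.94, for which CD10+ M1B26 cells were the low point of both. LLGL2 was close to both pairs (0.86 with OCLN, 0.74 with CLDN1, 0.85 with CRB3 and 0.77 with MAL2). CLDN7 had 0.75 with CLDN1 and 0.74 with OCLN, but 0.12 with MAL2 and 0.19 with CRB3. TJP1 lay between -0.27 and 0.42 with every other member. The tested genes most like each member over the same 9 means were SPINT2, PKP2 and B3GNT3 for CRB3 (r = 0.99, 0.99 and 0.98), POLB, EPPK1 and KIAA0040 for MAL2 (0.99, 0.99 and 0.99), VIPR1, FEM1B and PAXIP1-DT for CLDN1 (0.98, 0.97 and 0.97) and ST6GAL1, VIPR1 and CXCL16 for OCLN (0.98, 0.98 and 0.97). For CLDN7 they were PHGDH, SRRM2 and ACAT1 (0.98, 0.96 and 0.96), for LLGL2 CD9, ALDH3A2 and TSPAN1 (0.98, 0.98 and 0.97), and for TJP1 TANGO6, ZNF519 and CCDC150 (0.95, 0.94 and 0.94). Like CRB3, the serine protease inhibitor SPINT2 dropped in CD10+ M1B26 cells, from 1627 and 1896 in CD10- to 386 and 503, and the desmosome plaque protein PKP2 went from 472 and 503 to 93.1 and 93.8.

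Other tight junction genes were taken from a list of 35, of which 19 were tested. In M1B26, 4 of the 19 fell in CD10+ cells and 0 rose, against 6.5% of all genes called, and the median of the 19 was -0.08 against 0.01 for all genes. MARVELD3, a relative of occludin, had 86.2 and 118 in CD10- and 7.72 and 10.1 in CD10+ cells (-3.37 ± 0.34, limma adjusted p = 2.3e-05); both CD10+ arrays are under the filter level of 14.3, so the size is uncertain. CXADR, a junctional adhesion receptor, had 414 and 574 against 73.3 and 108 (-2.44 ± 0.41, adjusted p = 0.0015). MARVELD2 (tricellulin) and LSR (angulin-1), which seal the corners where 3 cells meet, fell by 2.11 ± 0.29 and 1.62 ± 0.26 (adjusted p = 3.5e-04 and 0.0011). MARVELD2 was at 264 and 393 in CD10- and 66 and 83 in CD10+ cells, and LSR at 203 and 346 and then 77.1 and 94.3. The further probe sets of MARVELD2, MARVELD3 and CXADR all read lower in CD10+ cells too. The same 4 genes fell in the average over the lines, which M1B26 supplied nearly alone, since 0 of the 19 passed in MCF10A-CT or MC26 (differences of the 4 from -0.42 to 0.03), by 1.19 (MARVELD3), 1.02 (CXADR), 0.86 (MARVELD2) and 0.69 (LSR), with adjusted p = 0.0060, 0.0495, 0.018 and 0.033. None of the 19 passed in the unsorted contrasts. Against MCF10A-CT, 1 rose and 2 fell in CD10- MC26 cells, 1 and 1 in CD10- M1B26 and in CD10+ MC26 cells, and 3 and 5 in CD10+ M1B26 cells. Of all genes, 20%, 26.4%, 13.5% and 26.4% were called in these 4 contrasts in either direction, mostly as rises. With both directions counted, the first 3 counts are below the share over all genes. The genes behind these counts, here and in the lists that follow, are named after their values were seen. AMOTL2, an angiomotin, rose in all 4 (by 1.27 to 2.39), JAM3 and MPDZ rose in CD10+ M1B26 cells, CLDN15 fell in all but CD10+ MC26 cells (-0.74, adjusted p = 0.26), CXADR in all but CD10- M1B26 cells (-0.67, adjusted p = 0.23), and MARVELD2, MARVELD3 and LSR in CD10+ M1B26 cells.

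Among 21 other polarity genes tested, 1 fell and 0 rose in CD10+ M1B26 cells, no more than the 6.5% of all genes called in either direction, with a median of -0.22. It was PATJ, a Crumbs complex scaffold, with 249 and 259.6 in CD10- and 111 and 146 in CD10+ cells (-0.99 ± 0.22, limma adjusted p = 0.011; average over the lines -0.56, adjusted p = 0.042), although 1 of its further probe sets above the filter read 0.27. Against MCF10A-CT, in CD10- MC26, CD10- M1B26, CD10+ MC26 and CD10+ M1B26 cells, 0, 2, 0 and 1 of the 21 rose and 3, 3, 2 and 4 fell. With both directions counted, this was in each case a smaller share than over all genes. Most calls over all genes were rises and most among the 21 were falls, so this does not make falls rarer among the polarity genes. PATJ (-0.81 to -1.46) and DLG5 (-0.90 to -1.11) fell in all 4 sorted contrasts, PARD6B fell in all but CD10+ MC26 cells and PRKCZ in CD10+ M1B26 cells, while CDC42 rose in both M1B26 populations and STRADA in the CD10- one. Among 23 other apical trafficking genes, 1 fell and 0 rose, again no more than the 6.5% of all genes, with a median of -0.01: MYO5B, the motor that carries RAB11 and RAB25 vesicles, had 125 and 125 against 26.9 and 55.2 (-1.67 ± 0.28, adjusted p = 0.0018; average -0.77, adjusted p = 0.032). A second MYO5B probe set above the filter read -0.01, so this rests on 1 probe set. In unsorted M1B26 against MCF10A-CT the 1 call among the trafficking genes was AP1M2, an adaptor subunit for basolateral sorting in epithelia (115 and 154 in MCF10A-CT, 44.5 and 47.7 in M1B26, -1.51 ± 0.25, adjusted p = 0.010). In the 4 sorted contrasts, in the same order, 1, 2, 0 and 4 of the 23 rose, RAB8A among them in all but CD10+ MC26 cells, and 2, 4, 4 and 4 fell. With both directions counted, this was a smaller share than over all genes in both CD10- contrasts and a larger one in both CD10+ contrasts. AP1M2 (-1.04 to -2.27) and the MAL relative PLLP (-2.75 to -3.29) fell in all 4 sorted contrasts with MCF10A-CT as well, and MYO5B in all but CD10- MC26 cells. No polarity gene passed in an unsorted contrast.

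Of 12 regulators of the epithelial state tested, 4 rose and 3 fell in CD10+ M1B26 cells, where 6.5% of all genes were called, with a median of 0.02. The repressor ZEB1 had 51.4 and 123 in CD10- and 587 and 603 in CD10+ cells (2.89 ± 0.38, limma adjusted p = 2.0e-04), and ZEB2 0.864 and 22.7 and then 232 and 313 (5.35 ± 0.84, adjusted p = 0.0010), the CD10- level being near background. TWIST1, a mesenchymal factor, rose by 1.71 ± 0.44 (adjusted p = 0.027), from 218 and 355 to 907 and 921. The epithelial ETS factor EHF, which is not a mesenchymal gene, also rose (2.97 ± 0.50, adjusted p = 0.0017), from 41.1 and 64.6 to 258 and 649. The splicing regulator ESRP1 fell by 3.12 ± 0.27 (adjusted p = 5.6e-06), from 438 and 508 to 44.3 and 64.5. OVOL2, which represses ZEB1, fell by 2.45 ± 0.29 (adjusted p = 8.0e-05), from 91.3 and 115 to 15.5 and 20.8, and the third to fall, named after its values were seen, was the grainyhead factor GRHL1 (-1.27, adjusted p = 0.043). In the average over the lines EHF (1.60) and ZEB1 (1.25) rose and ESRP1 (-1.16) and OVOL2 (-0.90) fell, with adjusted p = 0.011, 0.0094, 0.0012 and 0.012, although 0 of the 12 passed in MCF10A-CT or MC26. None of the 12 passed in an unsorted contrast. In the sorted contrasts with MCF10A-CT, in the same order as above, 1, 2, 1 and 3 of the 12 rose and 3, 5, 4 and 5 fell, beside the 20%, 26.4%, 13.5% and 26.4% of all genes called. In all 4 of them SNAI2 rose (0.99 to 1.39) and the epithelial factor ELF3 fell (-2.80 to -3.68), 2 genes picked after seeing their values. TWIST1 fell in CD10- M1B26 (-1.37, limma adjusted p = 0.032) and CD10+ MC26 cells (-1.44, adjusted p = 0.040) and was at 0.22 in CD10+ M1B26 cells.

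**Figure D4:**
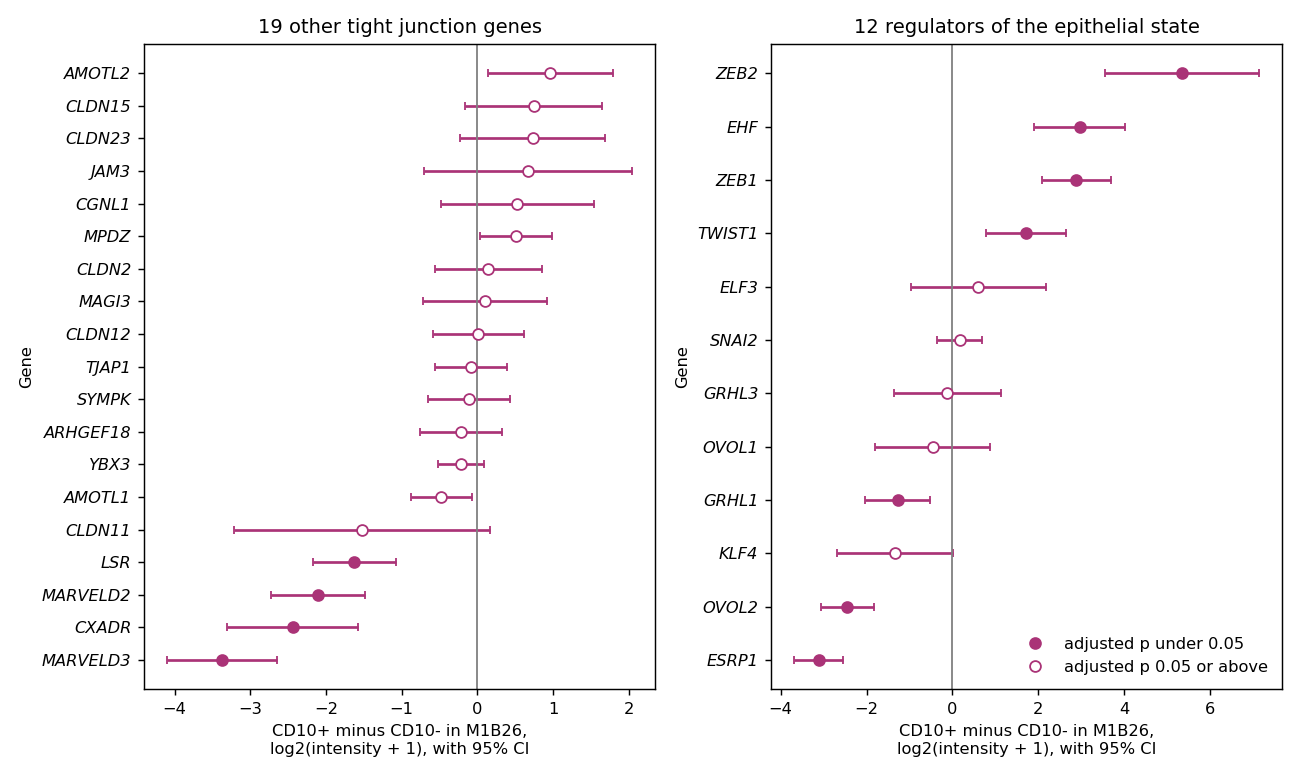
Difference between CD10+ and CD10- M1B26 cells on the log2(intensity + 1) scale for the 19 other tight junction genes (left) and 12 regulators of the epithelial state (right) that were tested, with 95% intervals from limma; filled points have an adjusted p under 0.05. MARVELD3, CXADR, MARVELD2 and LSR are filled on the left of 0, and ZEB2, EHF, ZEB1 and TWIST1 are filled on the right of 0.

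Markers of epithelial and mesenchymal cells moved in the same comparison. Of the 6 epithelial markers tested, EPCAM, CDH1 and KRT18 fell by 4.09, 3.64 and 0.90 in CD10+ M1B26 cells and KRT8 rose by 0.94 (limma adjusted p = 5.9e-05, 5.1e-07, 0.0064 and 0.029), while KRT5 was at -0.42 (adjusted p = 0.29) and KRT14 at -1.61 (adjusted p = 0.10). Of the 6 mesenchymal markers tested, DCN, COL6A1, FN1 and CDH2 rose by 4.64, 4.24, 3.40 and 2.45 (adjusted p = 0.0012, 1.2e-05, 0.014 and 0.0031), while VIM was at 0.30 (adjusted p = 0.37) and COL1A1 at 0.48 (adjusted p = 0.74). Of the 12 mesenchymal and fibroblast markers, 9 were above the filter in CD10+ M1B26 cells, against 6 to 8 in the other groups. The fibroblast proteoglycan LUM was at 517 and 593 there, at 15.4 and 45.7 in CD10- and at 40.7 and 71.6 in unsorted M1B26 cells, and not above the filter in the other lines. COL1A2 and THY1 were just above it in CD10+ M1B26 cells (17.8 and 23.4, and 17.9 and 24.8). COL1A2 was above it also in CD10- MCF10A-CT cells and every MC26 group, and THY1 also in unsorted MC26 cells. COL3A1, PDGFRA and PDGFRB were above it in no group. The part of these changes in the values of MAL2 and CRB3 was not tested.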

How the data were processed

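RNA of the 18 samples was hybridised to HG-U133 Plus 2.0 arrays. The authors deposited 1 linear intensity per probe set and array, made with Expression Console and MAS5 (versions not given in the sources used here); the study's methods name RMA, but the values carry no quantile normalization, since array medians are equal (16.7) and upper quartiles run from 95.1 to 124. Of 54675 probe sets, 41091 had 1 gene, 1801 several and 11721 none, and 62 were controls; names come from GEO's platform annotation and the GRCh38.p14 gene table (54 symbols were not in it). Values were log2(intensity + 1), with the probe set of highest mean per gene. Genes whose mean was not above that of the middle probe set (log2 3.93, or intensity 14.3) were not tested. Differences were fitted in R 4.3.3 with limma 3.58.1 (9 group means, eBayes with trend, 9 residual plus 6.28 prior degrees of freedom); tests were two-sided with Benjamini-Hochberg adjustment over 12171 genes per contrast and a threshold of 0.05. Errors after ± are SEs. The fit was tested on simulated data. The number of arrays limits precision.

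Named are all members, MME, from each list up to 6 genes past the threshold per contrast, and per tested member the 3 genes with the highest correlation over group means. The members, lists and tests were chosen with earlier results of these data known. Promoter windows are RefSeq's. Deviations of same-numbered CD10- and CD10+ arrays had correlations of 0.18 (M1B26), 0.36 (MC26) and 0.63 (MCF10A-CT). Same-numbered arrays of different lines gave -0.20 to 0.46. The 0.46 came from unsorted MC26 with unsorted M1B26 arrays, and the next highest value was 0.14. All 3 values of CD10- with CD10+ arrays lay above 0.14, and only that of MCF10A-CT above 0.46. Whether the sorted arrays of a line were paired is not settled by these values. The reported fit did not pair arrays, and the replicate number paired the sorted samples only in an alternative fit. For unsorted with sorted arrays of a line the correlation was -0.01 to 0.12. Alternatives were quantile normalization, centring, another pseudocount, other filters, other probe sets, no trend, only the arrays compared, replicate blocks and leaving out each array.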

Additional observations from a re-analysis of the deposited data

Results flagged for a closer look

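The CD10 difference differed between lines for 2 members. Minus that in MCF10A-CT, the M1B26 difference was -2.10 for CRB3 and -3.54 for MAL2 on the log2 scale; minus that in MC26, it was -1.88 for CRB3 and -3.35 for MAL2. These are tests of the difference itself, in limma. In both contrasts the M1B26 arrays are the same.

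Sorted minus unsorted differed between lines as well, in contrasts chosen after seeing the data. Minus that in MCF10A-CT, it was -1.81 for CLDN7 in MC26. In M1B26 it was -1.69 for CLDN1, -1.40 for CLDN7, -1.32 for CRB3, -1.80 for LLGL2 and -1.48 for MAL2, those of CRB3 and MAL2 holding the drop in CD10+ cells. The ACTB 3' to 5' ratio differed between sorted and unsorted arrays in all 3 lines, and its part was not tested.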

How the results depend on the processing

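All counts here are of 7 tested members. With the line-by-replicate block on the sorted arrays, the members called rose to 5 in the M1B26 CD10 contrast, 4 in the average, and 4 in the CD10 difference of M1B26 minus that in MCF10A-CT and 4 minus that in MC26; that fit has 3 residual degrees of freedom and takes every gene's variance from the trend, so that its p-values rest on other genes. The replicate number as a block on all arrays moved no count by more than 1.5 times. With no filter, M1B26 minus MC26 called 1; with only the arrays compared, M1B26 minus MCF10A-CT called 1; in both, CRB3 was lost. The average called 0 without the sorted M1B26 arrays. CLDN7 in M1B26 was not called with quantile normalization (1.18, adjusted p = 0.064) or centring (1.22, adjusted p = 0.060). The one sign change was OCLN in CD10- MC26 against MCF10A-CT, 0.11 with a dim probe set; the cause was not tested. Sorted minus unsorted in MC26 called 0 with quantile normalization, centring or no trend and 2 with a stricter filter; in M1B26 it called 2 with no filter or only the arrays compared; in MCF10A-CT it called 1 with the mean of all probe sets.

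Leaving out each array in turn, the members called ranged from 2 to 3 in the M1B26 CD10 contrast, from 1 to 3 and from 1 to 2 in its difference from MCF10A-CT and MC26, from 0 to 1 in unsorted MC26, from 2 to 4 and from 1 to 4 in CD10- and CD10+ MC26, and from 3 to 4 in CD10- M1B26. The count was 5 throughout in CD10+ M1B26 and 2 in the average. Sorted minus unsorted ranged from 0 to 1 in MCF10A-CT, from 0 to 2 in MC26, and in M1B26 from 1 to 4, and its difference from MCF10A-CT from 0 to 2 (MC26) and from 0 to 6 (M1B26). Of 980 single differences under these alternatives, for 35 that passed, 880 kept direction and call, 99 kept only their direction and 1 reversed.

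Over all tested genes, the calls moved by more than 1.5 times under some alternative in most contrasts. For the CD10 contrast in M1B26 (791 as reported) other settings gave 597 to 2564 and leaving out 1 array 369 to 939, for the average (139) 92 to 1118 and 71 to 168, and for the difference from MCF10A-CT (168) 108 to 1404 and 69 to 212, and from MC26 (154) 117 to 1328 and 68 to 201. Against MCF10A-CT, CD10- MC26 (2431) gave 988 to 2795 and 545 to 3010, CD10- M1B26 (3218) 1746 to 3375 and 1024 to 3450, CD10+ MC26 (1639) 1176 to 2159 and 234 to 2015, CD10+ M1B26 (3219) 2268 to 3355 and 910 to 3583, unsorted MC26 (39) 13 to 56 and 16 to 149, and unsorted M1B26 (82) 60 to 142 and 20 to 96. Unsorted M1B26 against MC26 (12) gave 2 to 16 and 4 to 46, and the CD10 contrasts of MCF10A-CT and MC26 (0 each) at most 78 and 21. Sorted minus unsorted gave 1144 to 2969 and 858 to 3432 in MCF10A-CT (2705), 61 to 193 and 38 to 135 in MC26 (100), and 416 to 705 and 85 to 561 in M1B26 (513), and its difference from MCF10A-CT 431 to 1164 and 113 to 1464 in MC26 (739) and 1052 to 1551 and 98 to 2412 in M1B26 (1444).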
